A study of Sus scrofa with 8 samples.

Results

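The unsprayed control group comprised 4 of the 8 RNA-seq libraries made from the olfactory epithelium (OE) of pigs (Sus scrofa). Its members were chosen by label alone, as the libraries whose sows received no solution on the nasal cavity before slaughter, so no vehicle was sprayed either. The group held 2 sows aged 8 months, offspring of Landrace boars and Rongchang sows and in estrus, and OE was taken from the left and the right side of each. The other libraries came from sows sprayed with Boarmate, a product that mainly contains androstenone, and are not described here. No label ties a control library to a sow or to a side. The 4 libraries are not 4 independent animals, and the spread between them mixes sow, side, dissection and library. The group has no labelled contrast within it, so no test of a difference was made. Differences between control 1, control 2, control 3 and control 4 are given below as values and as the ratio of the highest to the lowest library.

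The OE lines the upper back of the nasal cavity. Its sensory neurons carry odorant receptors on non-motile cilia and are renewed from globose and horizontal basal cells, while sustentacular cells support them and hold odorant-metabolizing enzymes. Below the epithelium lie Bowman's glands, nerve bundles wrapped by ensheathing glia, vessels, fibroblasts and, deeper, the bone and cartilage of the turbinates. The adjoining respiratory mucosa has ciliated cells that beat mucus, goblet cells and serous glands, and plasma cells that supply secretory antibody. A piece of dissected nasal mucosa can hold any of these in varying proportion. In such bulk RNA, fewer cells of a type and less RNA per cell cannot be told apart.

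The deposited count totals differed widely within the group. Control 1 held 4178330 estimated counts, against 81580146 in control 2, 93081025 in control 3 and 96797888 in control 4. The study lists numbers of cleaned reads that were alike for the 4 libraries, and why control 1 has so few counts is not stated. A value of 3 counts served as a reference floor. It corresponded to 0.718 CPM (counts scaled to the library total) in control 1 and to 0.031 to 0.0368 CPM in the others. These floors cover counting error only, and genes were called detected from 1 count on. Of 22516 annotated genes, 17931 had at least 1 count in all 4 libraries, 19031 had one in each of controls 2 to 4, and 1690 had none in the group. The 1100 genes seen in controls 2 to 4 but not in control 1 had a median of 0.178 TPM (transcripts scaled for length and library total), so the genes missing from control 1 were of low level. When the other libraries were thinned to the depth of control 1, the expected number of detected genes was 18431 for control 2, 17825 for control 3 and 17442 for control 4, against the 18205 found in control 1. At the higher end, 13725 genes reached 1 TPM in all 4 libraries, 680 reached 100 TPM and 81 reached 1000 TPM.

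The libraries resembled each other to unequal degrees. Over 11984 genes with a mean of at least 5 TPM, the Pearson correlation of log2(TPM + 1) was 0.93 between controls 1 and 2 and 0.877 between controls 2 and 4. It was 0.757 between controls 2 and 3 and 0.729 between controls 3 and 4. These are correlations across genes, which are not independent replicates, and they are given as a description. Between controls 1 and 2, 140 genes lay at least 4-fold apart, whereas 1511 did between controls 3 and 4. Control 3 and control 4 were thus the least alike, although both had high count totals. No pair of libraries was a repeat deposit, since counts of every pair differed by at least 42.3 times what counting error gives, as chi-square per degree of freedom.

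The most abundant transcripts with a symbol were mainly those of mitochondria and ribosomes. Of the 20 genes with the highest median TPM, 7 were mitochondrially encoded, 3 encoded ribosomal proteins, 7 had no symbol in the annotation and 3 were others. The leading named genes were COX1 and COX2, mitochondrially encoded subunits of cytochrome c oxidase. COX1 stood at 13253, 11788, 20179 and 18359 TPM in controls 1 to 4, a spread of 1.71-fold. The 13 mitochondrially encoded mRNAs together took 9.075%, 7.912%, 12.41% and 12.16% of TPM, with no member spread 4-fold and control 3 highest in TPM, control 4 under both rescalings described below. The gene of highest median level, ENSSSCG00000056610, has no symbol, and it stood at 23965, 24214, 21777 and 42707 TPM.

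The 3 other named genes among these 20 were B2M, TPT1 and JCHAIN. B2M, the light chain of MHC class I, stood at 10576, 6933, 14257 and 4996 TPM, or 9191 ± 4094 (SD, n = 4). TPT1, a translationally controlled protein made in most cells, was more even at 7267, 7959, 5582 and 5400 TPM. JCHAIN, which joins the subunits of secreted IgA and IgM, stood at 10850, 6312, 3080 and 1130 TPM, or 5343 ± 4248 (SD, n = 4). Control 1 was highest and control 4 lowest, 9.59-fold apart, and the gene ranked 10th among all genes in control 1 but 107th in control 4. Among the same 20 genes, ENSSSCG00000056658, ENSSSCG00000038719 and ENSSSCG00000036224, all without a symbol, also had control 1 highest and control 4 lowest, with spreads of 5.85-, 5.11- and 6.52-fold.

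**Figure D1:**
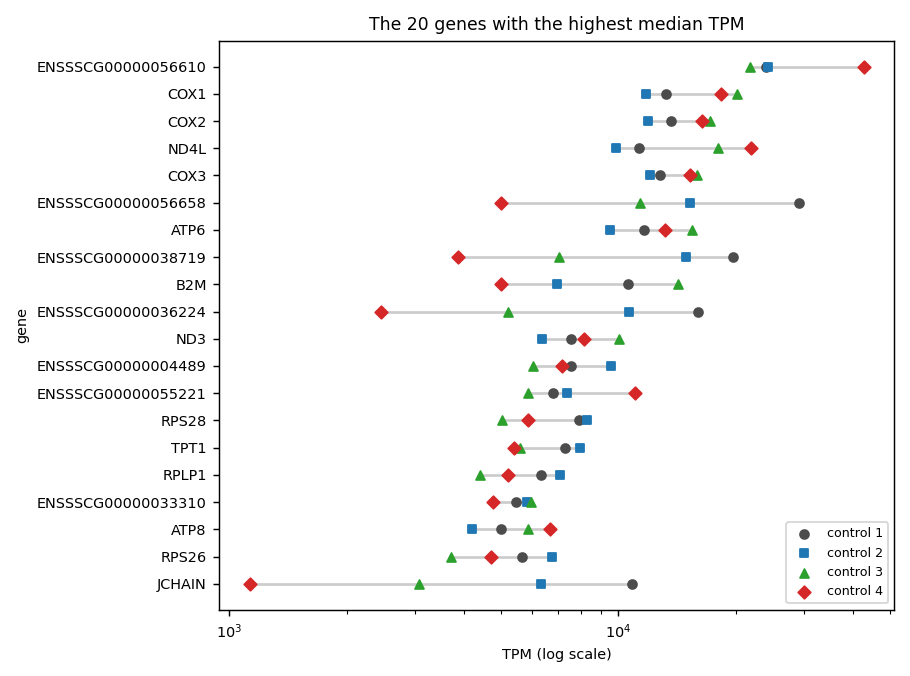
TPM (log scale) of the 20 genes with the highest median TPM, 1 point per control library and a line from the lowest to the highest. Mitochondrial and ribosomal genes span at most 2.23-fold, while JCHAIN and 3 genes without a symbol run from control 4 (lowest) to control 1 (highest).

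How far the total was concentrated in few genes also differed. The 10 leading genes of each library held 16.23%, 13.31%, 15.18% and 23.09% of TPM, or 16.95% ± 4.27 (SD, n = 4). Measured in estimated counts, which weigh long transcripts more, the 10 leading genes held 7.192%, 9.017% and 6.565% in controls 1 to 3 but 29.42% in control 4. COL1A1 and COL1A2, the chains of type I collagen, alone accounted for 20.7% of the counts in control 4, against 0.698%, 2.78% and 0.576% in controls 1 to 3. The genes that together held 50% of TPM numbered 145 in control 1, 145 in control 2, 249 in control 3 and 101 in control 4. Control 4 was the most concentrated library and control 3 the most evenly distributed. Of the 150 genes that entered the top 100 of any library, 62 were in the top 100 of all 4.

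**Figure D2:**
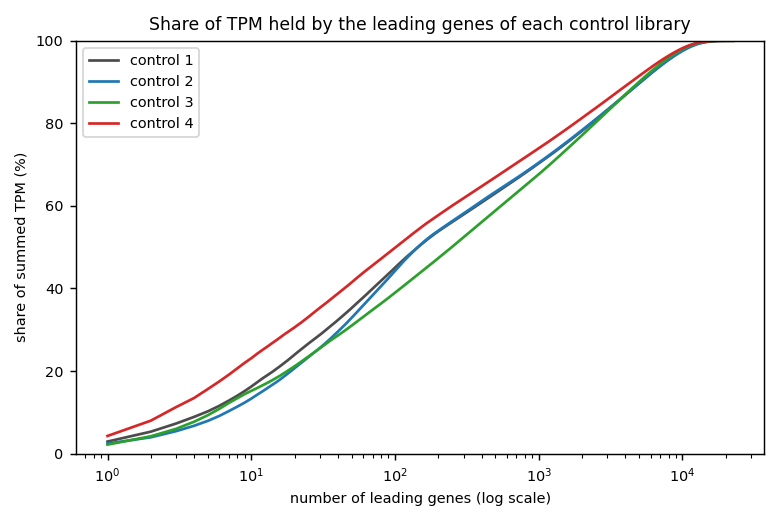
Cumulative share of summed TPM (%) against the number of leading genes (log scale), 1 line per control library. The control 4 line is highest throughout the leading genes (23.09% at 10 genes), controls 1 and 2 nearly coincide at 100 genes (45.05% and 44.3%), and control 3 is lowest there (38.96%).

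TPM sums to the same total in every library, so a gene's value also depends on the level of all others. Type I collagen held 6.99% of TPM in control 4, against 0.179%, 0.746% and 0.164% in controls 1 to 3. The median gene of control 4 was shifted by -0.25 on the log2 scale relative to the group, against 0, -0.01 and 0.05 for controls 1 to 3, and the part of collagen in this shift was not tested. After dividing by these shifts, or after scaling CPM by the trimmed mean of M-values (TMM), 5 of the lists below had another highest library, stated beside them, and 7 had another lowest one. In place of control 4, the lowest library became control 1 or control 2 for goblet genes, control 2 for ciliated genes, control 1 for serous gland, mature neuron and immediate early genes, and control 3 for adipocyte and tuft cell genes, under at least 1 of these scalings. CPM is not scaled for length, so the sums of TMM-scaled CPM also weigh long transcripts more. With TPM divided by the shifts, the mature neuron, glial, macrophage and MHC lists kept their highest library. The serous gland and mature neuron lists then kept control 4 as the lowest. Across genes the spread was moderate. The median gene varied 1.84-fold between its highest and lowest library on the TPM + 1 scale, and 6674 of 11984 genes varied less than 2-fold. At the other end, 2146 genes (17.9%) spread at least 4-fold and 240 at least 16-fold. The common biological coefficient of variation, edgeR's estimate of the relative spread left after counting error, was 0.5022 over 17119 genes.

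The genes spread at least 4-fold are called wide genes below. Control 3 was the highest library for 886 of them (41.3%), control 4 for 625 (29.1%), control 2 for 355 (16.5%) and control 1 for 280 (13.0%). Over all 11984 genes the highest library was control 3 for 41.2%, control 4 for 16.8%, control 2 for 24.4% and control 1 for 17.6%, so that control 3 had no larger share of the wide genes than of all genes, whereas control 4 had. Genes at least 4-fold above all other libraries numbered 4 in control 1, 18 in control 2, 108 in control 3 and 117 in control 4. Genes at least 4-fold below all other libraries numbered 17, 1, 127 and 11 in the same order. Among the wide genes the lowest library was control 4 for 809, control 3 for 758, control 2 for 440 and control 1 for 139. The share of all 11984 genes lowest in each library was not counted. Counts given below of list members lowest in a library therefore stand without that share. Wide genes numbered 886 when control 3 was left out and 1328 when control 4 was left out, so these 2 libraries carried much of the spread. Leaving out control 1 left 1980.

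The cell types behind these genes were read from 33 lists of marker and function genes, of which 385 identifiers were measured and 275 reached a mean of 5 TPM. Of these 275, 166 were wide (60.4%, against 17.9% over all genes tested). The lists were composed to represent cell types that differ in a dissected nose, so the share describes them and no more. In 6 lists with at least 5 such members every one was wide: ciliated cells, goblet cells and mucins, fibroblasts, osteoblasts and bone matrix, osteoclasts, and cartilage.

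**Figure D3:**
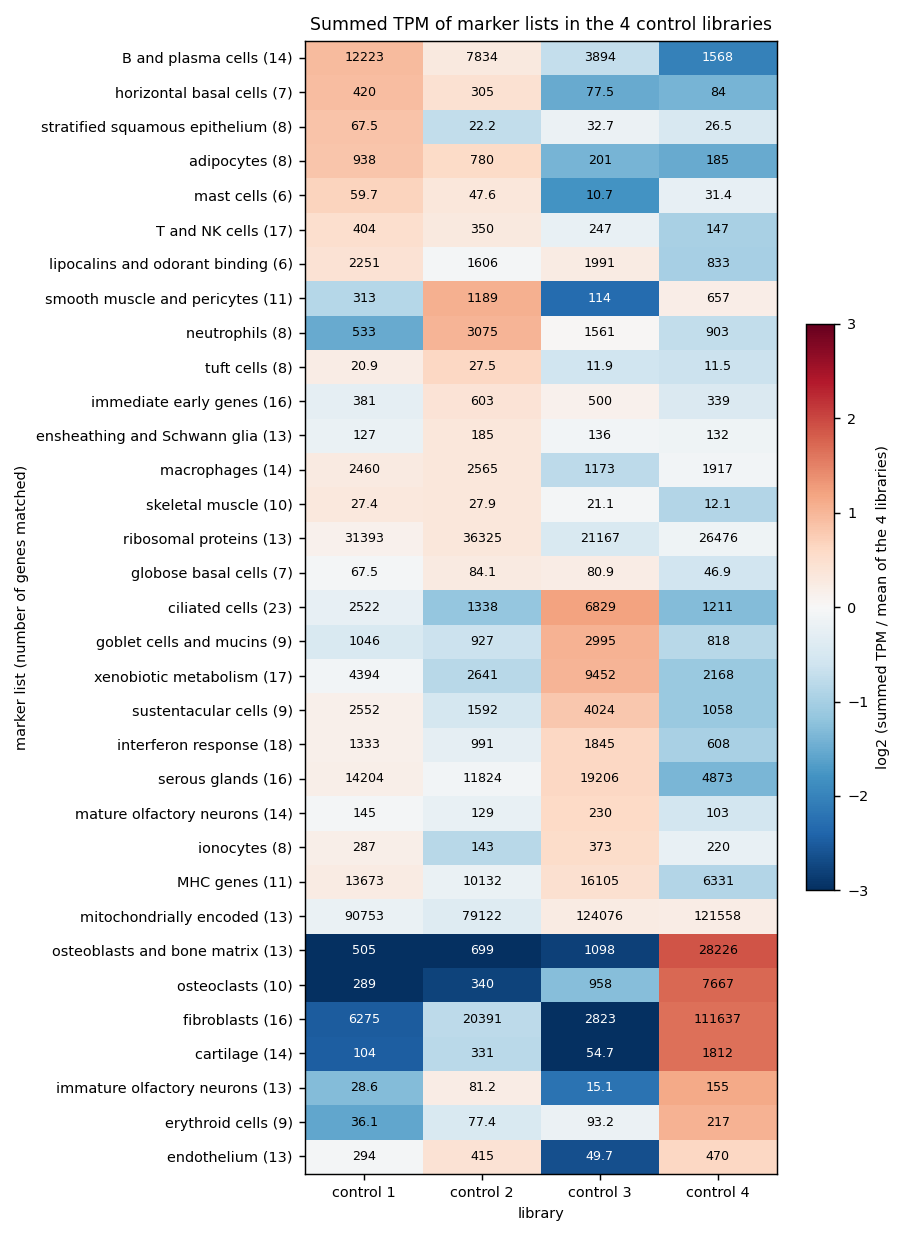
Summed TPM of the 33 lists in the 4 control libraries (numbers in the cells), coloured by log2 of the sum over the mean of the 4 libraries, with rows grouped by the highest library. Bone, osteoclast, fibroblast and cartilage lists stand out in control 4 and ciliated and goblet lists in control 3. Smooth muscle stands out in control 2, and the plasma cell and horizontal basal cell lists in control 1.

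The tissue label was checked first against the genes of olfactory sensory neurons. The mature neuron list summed to 145, 129, 230 and 103 TPM, with control 3 highest in TPM and control 2 under TMM-scaled CPM. STOML3, described below, supplied 80.3, 42.6, 190 and 34.9 TPM of these sums, so the high place of control 3 rests on that gene. Several genes that define these cells were at or near 0. CNGA2, the channel subunit that opens on odorant-evoked cAMP, stood at 1.82, 0.518, 1.77 and 0.279 TPM. GNG13, the gamma subunit of the olfactory G protein, stayed at or below 0.493 TPM. RTP1, which brings odorant receptors to the cell surface, and GFY, a Golgi protein of olfactory neurons, stayed at or below 0.0408 TPM, and RTP2 was at 0 in every library. In all, 6 of 14 measured genes of the mature neuron list were under 1 TPM in all 4 libraries and 6 reached at least 1 TPM in all 4, and no identifier carried the symbol OMP or CNGB1.

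The mature neuron genes that did reach higher levels gave no common order of libraries. STOML3, a stomatin-like protein of the olfactory cilium, stood at 80.3, 42.6, 190 and 34.9 TPM, highest in control 3. ANO2, the calcium-activated chloride channel of the olfactory cilium, stood at 30.2, 50.4, 3.53 and 28.8 TPM, lowest in control 3. STOML3 followed the order of FOXJ1, the master regulator of motile cilia, and its library ranking (control 3, 1, 2, 4) was the same. ANO2 and STOML3 thus ran in opposite directions in control 3, at 11.3-fold and 5.33-fold spreads. GNAL, the alpha subunit of the olfactory G protein, and ADCY3, the adenylyl cyclase it stimulates, stood at 2.53 to 8.87 and 8.89 to 15.0 TPM.

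Odorant receptor transcripts were also sparse. Of 76 receptor genes with a symbol, 15, 33, 27 and 20 had at least 1 count in controls 1 to 4, and their summed level was 9.23, 9.19, 5.36 and 3.82 TPM. Only OR51E1, a receptor also expressed outside the nose, exceeded 1 TPM, at 2.95, 1.84, 2.69 and 2.13 TPM. It varied little between libraries, and the next receptor, OR4K17, stayed between 0.187 and 0.548 TPM. Receptor genes whose identifiers carry no symbol are not in these sums.

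Genes of younger neurons and of basal cells followed different libraries. Sums of the immature neuron list were 28.6, 81.2, 15.1 and 155 TPM, but NCAM1 (3.27, 24.3, 1.78 and 78.4 TPM) and DPYSL3 (9.14, 36.1, 4.48 and 67.9 TPM), genes not restricted to neurons, supplied most of it in controls 2 and 4. DCX, a microtubule-binding protein of migrating neurons, reached 0.945 TPM at most, and STMN2, a neuronal microtubule regulator, stood at 1.22, 8.04, 0.68 and 0.304 TPM. GNG8, a G protein subunit of immature olfactory neurons, stood at 11, 8.63, 2.87 and 2.27 TPM. Horizontal basal cell genes summed to 420, 305, 77.5 and 84 TPM, with controls 1 and 2 above controls 3 and 4. Of the 7 members 6 were wide, 5 of them highest in control 1 and 1 in control 4. The member that was not wide was also highest in control 4. TP63, the transcription factor of epithelial basal cells, stood at 61.2, 29.5, 7.71 and 4.88 TPM. KRT15, a basal keratin, stood at 111, 104, 12.6 and 15.4 TPM and DLK2, a non-canonical Notch ligand and member of the same list, at 117, 66.8, 9.08 and 3.03 TPM. Globose basal cell genes, which include cell cycle genes, showed no wide member among 4, with sums of 46.9 to 84.1 TPM.

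Sustentacular and odorant-metabolizing genes were abundant, and the sums of both lists were highest in control 3. The sustentacular list summed to 2552, 1592, 4024 and 1058 TPM, and 6 of its 7 members above the filter were highest there and all 7 lowest in control 4. GPX6, a glutathione peroxidase of the olfactory mucosa, stood at 12.2, 43.4, 5.21 and 0.831 TPM and was the member highest elsewhere, in control 2. Part of the list is also expressed by other epithelia. KRT8, a keratin of simple epithelia, stood at 655, 418, 1100 and 238 TPM, and CYP2A19, a nasal and hepatic cytochrome P450, at 794, 534, 1085 and 417 TPM. The list of xenobiotic metabolism, which shares CYP2A19 and CYP2F1 with it, summed to 4394, 2641, 9452 and 2168 TPM, with 8 of 14 members wide and 8 highest in control 3, the highest library for 41.2% of all genes. ALDH1A1, a retinaldehyde dehydrogenase, led at 1235, 562, 4534 and 882 TPM. CYP1A1 and CYP1A2, by contrast, did not exceed 2.82 TPM in any library.

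Genes of motile cilia had 1 highest library in common. All 21 members of the ciliated list above the filter were highest in control 3, and all 21 were wide. Their sum was 2522, 1338, 6829 and 1211 TPM, a 5.64-fold span that shrank to 2.08-fold without control 3. FOXJ1 stood at 227, 105, 356 and 73.2 TPM, or 191 ± 129 (SD, n = 4), and is annotated by RefSeq at chr12:5307370-5312117 of Sscrofa11.1. TPPP3, a tubulin polymerization protein, stood at 404, 205, 1276 and 205 TPM, and CAPS, a calcium-binding protein of ciliated cells, at 219, 110, 644 and 106 TPM. DNAH5, a heavy chain of the outer dynein arm, stood at 24.5, 9.43, 51.2 and 7.58 TPM. The order was control 3, then control 1, then controls 2 and 4, of which the lower changed from control 4 to control 2 under both rescalings. All 42 CFAP (cilia- and flagella-associated protein) symbols with a mean of at least 5 TPM were highest in control 3, and 36 were wide. So were 18 of 18 axonemal dynein genes, with 16 wide. These families were defined after the values were seen, and they include members of the ciliated list, such as CFAP43 and DNAH5.

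**Figure D4:**
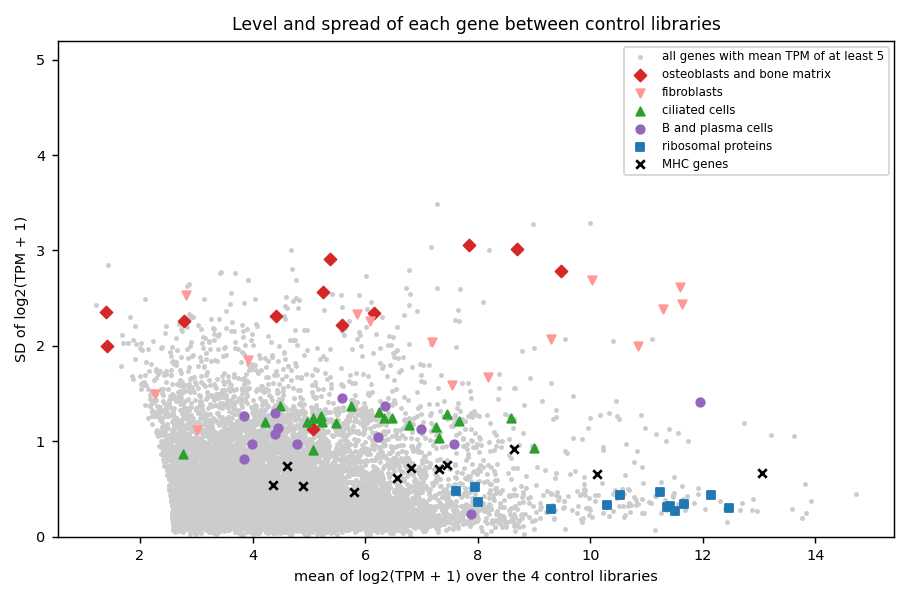
SD of log2(TPM + 1) against its mean over the 4 control libraries for 11984 genes (grey), with 6 lists in colour. Bone matrix and fibroblast genes lie mostly near or above an SD of 2, ciliated genes sit close together between about 0.9 and 1.4, and ribosomal protein genes lie near or below 0.5.

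Secretory genes of the surface and glands were among the leading transcripts, and the serous gland list summed to 14204, 11824, 19206 and 4873 TPM. SCGB1A1, taken up below, belongs to this list and supplied 9425, 3330, 2416 and 306 TPM, most of the sum in control 1. BPIFA1, an abundant airway secretory protein of the respiratory surface and glands, stood at 1399, 1236, 6526 and 1445 TPM, or 2651 ± 2584 (SD, n = 4), with control 3 apart from the other 3. It is annotated at chr17:36754498-36761622 and ranked 12th of all genes in control 3. MSMB, a secreted microseminoprotein, had the same pattern at 296, 182, 1322 and 228 TPM. PIGR, the receptor that carries polymeric IgA and IgM across epithelium, stood at 931, 2034, 3688 and 910 TPM, and WFDC2, a secreted protein with protease inhibitor domains, at 1420, 1651, 3735 and 1055 TPM. The sum of the goblet list was also highest in control 3, at 1046, 927, 2995 and 818 TPM. Of its 6 members above the filter, 4 were highest in control 3, 1 in control 1 and 1 in control 4. The last was CREB3L1, a transcription factor, at 27, 50.4, 59.9 and 113 TPM. AGR2, a disulfide isomerase needed for mucin folding, stood at 133, 107, 650 and 138 TPM, and CLCA1, a protein secreted with mucus, at 71.4, 71.6, 468 and 164 TPM. MUC2 was at or near 0 in every library, at most 0.0118 TPM.

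The secretoglobins, small secreted proteins of which several bind steroids and other hydrophobic molecules, followed other libraries. SCGB1A1, the club cell secretory protein, stood at 9425, 3330, 2416 and 306 TPM, a 30.7-fold span, and was 7.88-fold below the next library in control 4. SCGB1D1, a lipophilin, stood at 244, 4687, 28.6 and 220 TPM, so that control 2 was 19.1-fold above the next library. PHEROC, the C subunit of pheromaxein, the androstenone-binding protein described from boar saliva, stood at 166, 2389, 30 and 146 TPM, 14.3-fold higher in control 2 than in the next library. In RefSeq all 3 lie within one stretch of chromosome 2 of Sscrofa11.1, at 9297282-9302204 for SCGB1A1, 9376019-9379433 for PHEROC and 9387546-9391171 for SCGB1D1. PHEROC and SCGB1D1 therefore shared both neighbourhood and library order, with control 2 highest and control 3 lowest, whereas their neighbour SCGB1A1 had control 1 highest. Related sequences may share reads in pseudoalignment, which was not examined here.

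A few other secreted proteins were also highest in control 2, although of the 10 serous gland members above the filter 3 were highest there and 5 in control 3. LTF, the iron-binding lactoferrin of serous glands and neutrophil granules, stood at 384, 3006, 1196 and 781 TPM. The neutrophil list, which contains it, summed to 533, 3075, 1561 and 903 TPM. LTF supplied most of this sum in every library, so the order of the sum is that of LTF. Of the 5 members above the filter, 1 was highest in control 1, 1 in control 2 and 3 in control 3. The neutrophil granule gene MPO was at or below 0.174 TPM, and S100A12 was highest in control 3 at 298 TPM. SAL1, the salivary lipocalin that carries boar pheromones, stood at 32, 83.9, 6.4 and 23.3 TPM, again highest in control 2. LCN2, an iron-siderophore-binding lipocalin of inflamed epithelium, stood at 2001, 1147, 1812 and 500 TPM and made up most of the lipocalin list, which summed to 2251, 1606, 1991 and 833 TPM. The 2 genes of largest SD in the group, ENSSSCG00000053444 (289, 3276, 50.7 and 10.8 TPM) and ENSSSCG00000033610 (694, 12984, 55.1 and 2137 TPM), have no symbol and were highest in control 2 as well.

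Control 4 was set apart by the genes of bone. The list of osteoblast and bone matrix genes summed to 505, 699, 1098 and 28226 TPM, a 55.8-fold span that fell to 2.17-fold without control 4, and all 12 members above the filter were highest in it. BGLAP (osteocalcin) stood at 186, 100, 168 and 9371 TPM, 50.1-fold above the next library. IBSP (integrin-binding sialoprotein) stood at 58.4, 62.2, 143 and 5265 TPM, SPP1 (osteopontin) at 172, 195, 702 and 11085 TPM and DMP1 (dentin matrix protein of osteocytes) at 14.1, 9.63, 21.5 and 832 TPM. All 3 encode acidic phosphoproteins of mineralized matrix and lie in one cluster on chromosome 8, at 131077786-131085334 for SPP1, 131208281-131222048 for IBSP and 131285238-131319398 for DMP1. SOST, which osteocytes secrete to inhibit Wnt signalling, was at 29.2 TPM in control 4 and at or below 0.294 TPM elsewhere. Transcripts of bone matrix were measured in every library, as IBSP did not fall below 58.4 TPM.

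Osteoclast genes, those of the cells that resorb bone, had the same highest library. They summed to 289, 340, 958 and 7667 TPM, and all 7 members above the filter were wide and highest in control 4. CTSK, the collagen-degrading cathepsin K, stood at 177, 224, 476 and 3651 TPM. ACP5, tartrate-resistant acid phosphatase, stood at 71.9, 79.7, 338 and 2806 TPM, and MMP9, a gelatinase, at 14.8, 14.4, 82.3 and 851 TPM. Control 3 was second for each of these genes, above controls 1 and 2. ATP6V0D2, a proton pump subunit of osteoclasts that is also in the ionocyte list, had the largest SD of the list, at 1.49, 1.36, 15.4 and 134 TPM. MMP13, a collagenase of bone and cartilage, stood at 65.8, 24.3, 80.6 and 3085 TPM, a 122-fold spread. The erythroid list summed to 36.1, 77.4, 93.2 and 217 TPM. HBB, the adult beta-globin of red cells, stood at 31.9, 65, 87.2 and 205 TPM, and the erythroid transcription factor KLF1 stayed at or below 0.286 TPM.

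Fibroblast and collagen genes were highest in control 4 and second in control 2. The fibroblast list summed to 6275, 20391, 2823 and 111637 TPM, with all 15 members above the filter wide, 13 of them highest in control 4 and 13 lowest in control 3. COL1A1, annotated at chr12:26379087-26397180, stood at 961, 3686, 862 and 32876 TPM, or 9597 ± 15575 (SD, n = 4). COL1A2 stood at 825, 3774, 773 and 37050 TPM, COL3A1 (type III collagen) at 445, 3144, 117 and 7196 TPM and SPARC, a collagen-binding matrix protein, at 940, 3640, 533 and 21990 TPM. Type I collagen and SPARC are also products of osteoblasts. Without control 4 the span of this list was 7.22-fold. POSTN, a matrix protein of periosteum and connective tissue, had the library order of COL1A1 but not its large excess in control 4. It stood at 1162, 1245, 73 and 1498 TPM, similar in 3 libraries and 15.7-fold lower in control 3 than in the next. Of 28 collagen genes with a mean of at least 5 TPM, 26 were wide, 20 were highest in control 4 and 20 were lowest in control 3.

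Cartilage genes were split. The list summed to 104, 331, 54.7 and 1812 TPM, led by CHAD (chondroadherin) at 34.2, 48.6, 25.4 and 831 TPM and COL11A1 (a fibrillar collagen) at 13.3, 91.5, 9.9 and 375 TPM. ACAN, the core protein of aggrecan, stood at 4.03, 99.7, 3.75 and 189 TPM, with controls 2 and 4 above controls 1 and 3. COL2A1, the collagen that defines hyaline cartilage, stayed between 0.393 and 1.78 TPM. Of the 7 members above the filter, 5 were highest in control 4, and CNMD (chondromodulin) was highest in control 1 at 34.2, 17.2, 1.56 and 2.05 TPM.

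**Figure D5:**
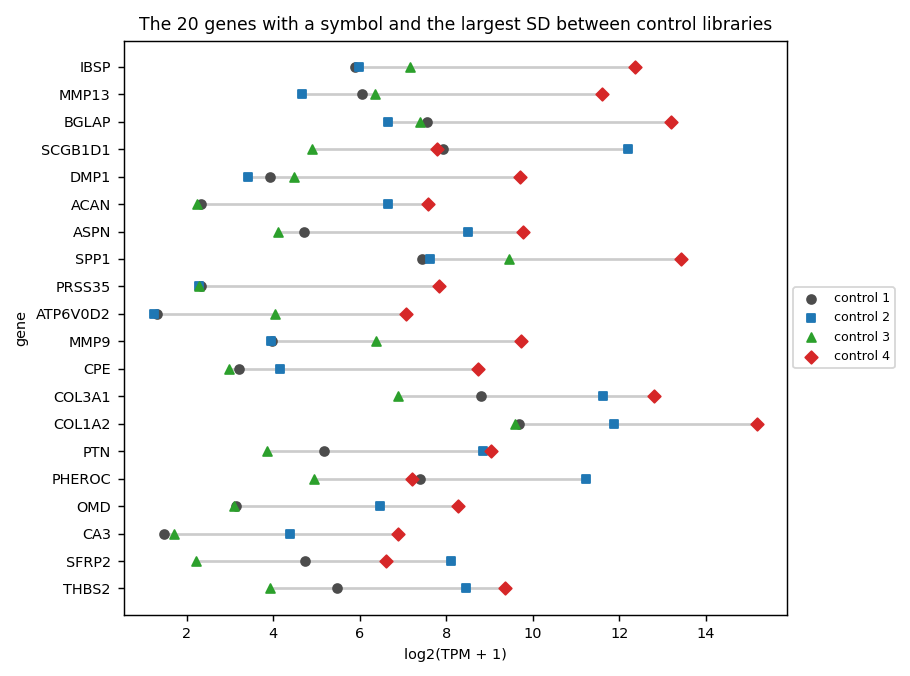
log2(TPM + 1) of the 20 genes with a symbol and the largest SD between control libraries (mean of at least 5 TPM), 1 point per library and a line from the lowest to the highest. Control 4 is the highest library for most, including IBSP, MMP13 and BGLAP, and control 2 for SCGB1D1, PHEROC and SFRP2.

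Vascular genes were low in control 3. The endothelial list summed to 294, 415, 49.7 and 470 TPM, and all 12 members above the filter were lowest in control 3. EGFL7, a protein secreted by endothelial cells, stood at 82, 106, 8.64 and 86.7 TPM, and PECAM1, an endothelial adhesion molecule, at 48.9, 67, 17.4 and 81 TPM. Without control 3 the span of the list was 1.6-fold. Genes of smooth muscle and pericytes summed to 313, 1189, 114 and 657 TPM. ACTA2, smooth muscle actin, stood at 84.6, 469, 32.5 and 197 TPM, and CNN1, calponin of contractile smooth muscle, at 2.63, 56.1, 0.523 and 4.52 TPM. Contractile genes were therefore highest in control 2, the library with the highest SCGB1D1 and PHEROC. PDGFRB, the pericyte receptor, was highest in control 4 instead, at 42.5, 82, 3.75 and 88.2 TPM. The low stromal and vascular values of control 3 stood beside its high ciliated values. Whether proportions of tissue gave both was not tested.

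The sums of the lymphocyte lists were lowest in control 4. The counts of members lowest there stand without the share over all genes. The B and plasma cell list summed to 12223, 7834, 3894 and 1568 TPM, with JCHAIN supplying most, and all 14 members were lowest in control 4, 12 of them wide. Within it, 5 members were highest in control 1, 7 in control 2 and 2 in control 3. MS4A1 (CD20), a surface protein of B cells, stood at 79.8, 131, 37.3 and 12 TPM and CD79B, of the B cell receptor, at 124, 235, 57 and 25.6 TPM, both highest in control 2. MZB1, a chaperone of antibody-secreting cells, stood at 352, 281, 170 and 75.9 TPM and TNFRSF17, the plasma cell receptor BCMA, at 160, 103, 62.6 and 28.6 TPM, both highest in control 1. T and NK cell genes spanned less, at 404, 350, 247 and 147 TPM, and 11 of 14 were lowest in control 4. CD3E, of the T cell receptor complex, stood at 54.4, 40.4, 17.5 and 11.9 TPM, whereas GZMB, a cytotoxic granule protease, was highest in control 3 at 42 TPM.

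Myeloid genes did not follow lymphocytes. The macrophage list summed to 2460, 2565, 1173 and 1917 TPM, and its largest member, CD74, belongs equally to antigen presentation. CD74 stood at 1540, 1738, 763 and 729 TPM. The highest library of the sum was control 2 in TPM and control 4 under TMM-scaled CPM. Of the 12 members above the filter, 3 were highest in control 1, 2 in control 2, 1 in control 3 and 6 in control 4. C1QB, a complement component made by macrophages, stood at 194, 192, 63.1 and 173 TPM, lowest in control 3. CD68, a lysosomal protein of macrophages and osteoclasts, was highest in control 4, at 41, 48.9, 81.2 and 281 TPM. GATA2, a transcription factor of mast cells and other lineages, stood at 26.9, 23.6, 1.45 and 7.98 TPM. The mast cell list summed to 59.7, 47.6, 10.7 and 31.4 TPM, lowest in control 3.

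The sums of the interferon response and MHC lists were lowest in control 4. Here too, the share of all genes lowest in that library was not counted. Interferon response genes summed to 1333, 991, 1845 and 608 TPM, with 16 of 17 members highest in control 3 and 17 of 17 lowest in control 4, and 5 of them were wide (29.4%, against 17.9% over all genes). Their median spread was 2.99-fold and that of the MHC genes 2.72-fold, against 1.84-fold over all genes. IFI6, an interferon-induced mitochondrial protein, stood at 372, 261, 492 and 146 TPM. CXCL10, a chemokine of the same response, was highest in control 1 at 92.3 TPM. None of the 11 MHC genes was wide. The MHC sum was highest in control 3 in TPM and in control 1 under TMM-scaled CPM, and 10 of 11 members were lowest in control 4. B2M supplied most of this sum in every library, and only 11 of the 21 listed MHC symbols were matched. The 6 members highest in control 2 were the class II genes SLA-DQB1, SLA-DMA, SLA-DMB, SLA-DOA, CD74 and CIITA, the class II transactivator. SLA-DQB1 stood at 668, 710, 220 and 241 TPM. Of class I genes, TAP1, a subunit of the peptide transporter, was highest in control 3 like B2M, at 114, 85.8, 148 and 53.7 TPM.

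Immediate early genes, which respond within minutes to stimuli and handling, summed to 381, 603, 500 and 339 TPM, with 2 of 10 members wide. NR4A1, an orphan nuclear receptor, stood at 6.4, 48.9, 7.59 and 8.49 TPM. DUSP1, a MAP kinase phosphatase, stood at 55.6, 156, 52.9 and 46.1 TPM, and FOS, a subunit of AP-1, at 20.7, 67.9, 48.8 and 39.5 TPM. All 3 were highest in control 2. IER3, a survival regulator, was highest in control 3 at 190 TPM.

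The tuft cell, skeletal muscle and squamous epithelium lists stayed low in every library. Tuft cell genes summed to 11.5 to 27.5 TPM, with TRPM5, their cation channel, at or below 0.216 TPM. Skeletal muscle genes summed to 12.1 to 27.9 TPM, squamous epithelium genes to 22.2 to 67.5 TPM. The ionocyte list summed to 287, 143, 373 and 220 TPM, of which control 4 drew most from ATP6V0D2. FOXI1, the transcription factor of ionocytes, was measurable at 14.4, 7.18, 18.8 and 4.5 TPM, and CFTR, the chloride channel of these cells, at 16.5, 5.44, 38.5 and 8.76 TPM. Glial genes summed to 127, 185, 136 and 132 TPM, with control 3 highest under TMM-scaled CPM, but SOX10, the glial transcription factor, stood at 3.61, 17.4, 0.611 and 0.984 TPM, so it varied 11.4-fold inside an even sum. CFD, complement factor D of adipocytes and other cells, made up most of the adipocyte list (sums of 938, 780, 201 and 185 TPM) at 920, 730, 189 and 95.6 TPM, while ADIPOQ, the defining adipokine, stayed at or below 0.9 TPM.

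Housekeeping genes had narrower spreads. None of 64 ribosomal protein genes with a mean of at least 5 TPM was wide, and the ribosomal list summed to 31393, 36325, 21167 and 26476 TPM with all 13 members lowest in control 3. None of 35 proteasome subunits was wide, though 31 were highest in control 3 and 28 lowest in control 4. Among genes with a symbol and at least 100 TPM on average, PRKCSH, the beta subunit of glucosidase II, was the most even at 112, 112, 110 and 109 TPM. FTL, the ferritin light chain, combined evenness with abundance at 2344, 2356, 2159 and 2191 TPM. GAPDH, a glycolytic enzyme often used as a reference, stood at 875, 1231, 807 and 1154 TPM, a spread of 1.52-fold.

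Each library thus had leading genes of its own. In control 1 the genes furthest above the other libraries were TFF1, a trefoil peptide (26.4, 4.83, 0 and 0 TPM), and 3 identifiers without a symbol. All rested on few counts there: TFF1 on 18, ENSSSCG00000044779 on 11, ENSSSCG00000032853 on 5 and ENSSSCG00000061777 on 3. In control 2 they were SCGB1D1, PHEROC, ENSSSCG00000053444 and CNN1, and in control 4 BGLAP, PRSS35, MMP13 and DMP1. In control 3 they were ENSSSCG00000013714, PLA2G2A (a secreted phospholipase), ENSSSCG00000034882 and ENSSSCG00000056534, at 6.68- to 6.92-fold above the next library. Below all other libraries, control 3 lay 15.7-fold under the next for POSTN and 12.9-fold for ELN (elastin of elastic fibres).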

How the data were processed

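RNA was extracted with Trizol and libraries were prepared with a NEBNext Ultra RNA kit. Paired reads were trimmed (fastp 0.23.1) and pseudoaligned to the Ensembl cDNA of Sscrofa11.1 (kallisto 0.48.0) by the authors, who deposited TPM and estimated counts per gene, and the step from transcripts to genes was not stated. For 17905 genes above 0 in all 4 control libraries, every deposited estimated count equalled TPM times a fixed length per gene and a factor per library (tolerance 0.001 log2), so counts and TPM hold the same information between libraries. Symbols matched 15527 of 22516 identifiers. Coordinates are from RefSeq by symbol.

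Spread is the highest over the lowest library of TPM + 1 (a pseudocount of 1) among genes with a mean of at least 5 TPM, and wide means at least 4-fold. The coefficient of variation came from edgeR 4.0.16 (R 4.3.3) on estimated counts rounded to whole numbers, with an intercept only. Other steps used Python 3.11.15, pandas 2.3.3 and numpy 2.4.6, and figures matplotlib 3.10.9. The spread and variation steps were tested on simulated data.

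Named genes were the 20 of highest median TPM, the 20 of largest SD of log2(TPM + 1), the 4 furthest above the other libraries in each library (at least 20 TPM there), the 3 most abundant members and the member of largest SD of each list, and FOXJ1, BPIFA1, COL1A1, STOML3 and ANO2. Other genes were named after their values were seen. The group and lists were chosen with earlier results of these data known. LTF, CD74, ATP6V0D2, KIT, DES, CYP2A19 and CYP2F1 each stand in more than 1 list. GZMA has 2 identifiers, and 1 identifier per gene was used elsewhere. The sprayed libraries entered no value.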

Additional observations from a re-analysis of the deposited data

Results flagged for a closer look

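Among 184 values examined (147 genes, 33 list sums and 4 measures per library), 12 had 1 library apart from the other 3, where Dixon's ratio of the gap to the range passed its 95% critical value. Chance gives about 1 in 20 for values not chosen by their spread. Part of these genes were named for their spread or for 1 high library, so that share does not apply to them and nothing is read from the number. Controls 1, 2, 3 and 4 were the library concerned in 3, 2, 4 and 3 cases.

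Total counts had a ratio of 0.836, with control 1 lowest. In control 4, the highest library was apart for ENSSSCG00000056610 (0.842), BGLAP (0.864) and PRSS35 (0.992), a serine protease-like gene at 4.01, 3.85, 3.88 and 226 TPM. In control 3, BPIFA1 (0.906) and AGR2 (0.861) were apart as highest, and EGFL7 (0.894) and C1QB (0.898) as lowest. In control 2, NR4A1 (0.87) and DUSP1 (0.848) were apart as highest. ENSSSCG00000044779 and ENSSSCG00000061777 had the highest possible ratio of 1 in control 1, from 11 and 3 counts, a value fixed by the 3 zeros elsewhere.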

How the results depend on the processing

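No paired analysis was possible because no result compares groups, and no source ties a library to a sow, so a replicate block could not be fitted. The number of wide genes (2146) was 2448 with a pseudocount of 0.1, 2701 without the filter on low values, 2205 with TMM-scaled CPM and 2188 with CPM scaled by DESeq2 size factors. With 1 library left out it ranged from 886 (without control 3) to 1980 (without control 1), and it was 1328 without control 4. Genes detected in all libraries numbered 14705 at 10 counts and 13725 at 1 TPM, and 17961 to 19031 with 1 library left out. The share of the 10 leading genes was 13.05% in counts, 15.15% without mitochondrially encoded genes, and 14.91% to 18.17% with 1 library left out. The biological coefficient of variation was 0.5021 with DESeq2 size factors, 0.5434 over all genes with a count, and 0.4111 (without control 3) to 0.5525 (without control 1). List spans of at least 4-fold numbered 15, or 14 under either rescaling and 10 to 14 with 1 library left out. Of 33 lists, 5 had another highest and 7 another lowest library under a rescaling. The span moved beyond the spread between libraries for 2 lists under TMM-scaled CPM, and for 4, 3, 12 and 14 without controls 1, 2, 3 and 4. Genes of low level were limited by the count total of control 1.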

Other observations

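Keratins were highest in control 1 for 6 of 8 genes with a mean of at least 5 TPM, and 6 of 8 were wide. AQP3, a glycerol and water channel of basal epithelial cells, stood at 1310, 513, 477 and 127 TPM. CCL19, a chemokine that draws lymphocytes, stood at 81.2, 155, 3.76 and 9.02 TPM, and GAL, the neuropeptide galanin, at 31.4, 44.8, 1.28 and 0.72 TPM, both with controls 1 and 2 above controls 3 and 4. VIM, an intermediate filament of mesenchymal cells, stood at 375, 1851, 139 and 3187 TPM. CBR2, a carbonyl reductase, stood at 3928, 1893, 5292 and 1135 TPM, and LGALS13, a galectin, at 3938, 1777, 4464 and 906 TPM. Both were in the order of the ciliated list, and both were among the 10 most abundant genes with a symbol outside mitochondria and ribosomes. These genes and families were chosen after their values were seen.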
